A study of Mus musculus with 12 samples.

Results

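A set of 9 genes of repeat silencing and chromatin repression were followed across 4 groups of mice: Smchd1, Dnmt1, Dnmt3a, Dnmt3b, Ezh2, Suv39h1, Setdb1, Trim28 and Cbx3. They were chosen by gene name as repressors linked to silencing of the DUX4 repeat in facioscapulohumeral muscular dystrophy (FSHD), together with relatives of those repressors, and are 9 of the 37748 genes in the count table. All 9 passed the filter on low counts, as did 16679 genes in total. The libraries came from gastrocnemius muscle of 12 mice aged 13 weeks, 3 mice per group and 1 poly(A)-selected library per mouse. Control mice carried ACTA1-MCM/+ alone, a Cre recombinase that tamoxifen (TMX) activates and that is driven by a skeletal muscle actin promoter. FLExD/+ mice carried only the conditional human DUX4-fl transgene, inserted at Rosa26 in antisense direction until Cre turns it round. The paper describes low leaky DUX4-fl expression in this line, with no DUX4 protein detected in its skeletal muscle. The sample descriptions call these mice mild in pathology. From their strain labels, control and FLExD/+ mice were taken as not given TMX. The paper lists ACTA1-MCM/+ controls with TMX, and does not state whether the control mice sequenced here were injected. Mice of the moderate and the severe model had both transgenes (FLExDUX4/+;MCM/+) and were given TMX intraperitoneally, as 1 injection of 5 mg/kg for the moderate and 2 injections of 10 mg/kg for the severe model, with muscle taken on day 9. TMX and DUX4-fl were given together in the models, so their parts in any difference from control cannot be told apart. Recombination in the models is mosaic, and the Cre line recombines some nuclei without TMX.

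In FSHD the DUX4 retrogene escapes silencing at the D4Z4 macrosatellite array of human chromosome 4. Silencing there combines DNA methylation, methylation of histone H3 on lysine 9 and lysine 27, and SMCHD1, a non-canonical member of the SMC (structural maintenance of chromosomes) family that also acts on the inactive X chromosome. Mutations of SMCHD1 or DNMT3B are known causes of the form of the disease without a short array. The mouse has no D4Z4 array, and here DUX4-fl is read from the Rosa26 promoter, so these genes were measured as part of the muscle's own transcriptome and not as regulators of the transgene.

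Positions are from GENCODE M21 on GRCm38, the build of the mapping (mm10). Smchd1 (ENSMUSG00000024054) lies on chr17:71344489-71475343, minus strand. The DNA methyltransferase genes are Dnmt1 (ENSMUSG00000004099, chr9:20907209-20959888, minus), Dnmt3a (ENSMUSG00000020661, chr12:3806007-3914443, plus) and Dnmt3b (ENSMUSG00000027478, chr2:153649450-153687730, plus). Ezh2 (ENSMUSG00000029687) is on chr6:47530139-47595341, minus. Suv39h1 (ENSMUSG00000039231) is X-linked, on chrX:8061171-8074760, minus. Setdb1 (ENSMUSG00000015697) is on chr3:95323525-95357202, minus, and Trim28 (ENSMUSG00000005566) on chr7:12999114-13031035, plus. Cbx3 (ENSMUSG00000029836) is on chr6:51470360-51483704, plus. Protocols name no strand-marking step, so reads of a gene and of a partner on the other strand cannot be told apart. Setdb1 overlaps Cers2, which had 298 to 1393 counts per library, Trim28 overlaps Zbtb45 with 43.3 to 181 counts, and the other overlapping genes in the count table had at most 59.4 counts. Counts of Smchd1, Dnmt1 and Trim28 were whole in every library, whereas those of Dnmt3a, Ezh2, Suv39h1 and Cbx3 were not whole in any of the 12 libraries, which means that some of their reads were shared out among genes by the authors' estimate.

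Promoter sequences are shown because Dnmt1 and Ezh2 are known to be expressed with the DNA replication program, which E2F factors drive. RefSeq windows on GRCm38.p6, 300 bases each (250 before and 50 after a transcript start), were held for all 9 genes, 15 windows in all. They were searched on both strands for the E2F words TTTCCCGC, TTTCGCGC, TTTGCCGC and TTTGGCGC, chosen after the expression values were seen. A word was present in 4 of the 15 windows, 1 each of Dnmt1, Ezh2, Suv39h1 and Cbx3. It was present in 2.26% of all 32851 windows and in 3 of 11 windows of the cell cycle markers used below. Each word holds a CpG, and the median CpG count was 31 in the windows of the 9 genes against 7 over all windows. The 2.26% is therefore not a share matched for CpG, and a part of E2F was not tested. The DUX4 homeobox motif was in 0 windows of the 9 genes and in 0.161% of all windows. With so low a share, 0 among 15 short windows could hardly have come out otherwise, and a part of DUX4 was not tested. The words stand in capitals in these stretches of 30 bases, each read 5′ to 3′ along its gene's strand.
Dnmt1, chr9:20952824-20952853, minus: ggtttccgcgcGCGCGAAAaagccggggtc
Dnmt1, chr9:20952574-20952603, minus: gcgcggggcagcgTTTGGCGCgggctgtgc
Ezh2, chr6:47595009-47595038, minus: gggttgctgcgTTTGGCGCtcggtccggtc
Suv39h1, chrX:8074407-8074436, minus: ggaaggccggcGCGGCAAAcgtgggggccg
Cbx3, chr6:51470437-51470466, plus: tggagccccgcTTTGGCGCgctccgagacg
A match is a string of letters and does not show that a factor binds. Cbx3, which holds one, was not called in either model on the scaling used below. With library size alone it was called higher in the severe model. Smchd1 is shown as the best known FSHD gene of the set. It held no E2F word, and its window had 40 CpG against a median of 31 over the 15 windows and 7 over all windows. The 100 bases just before its start, chr17:71475344-71475443 on the minus strand, are shown with each of their 15 CpG in capitals.
Smchd1: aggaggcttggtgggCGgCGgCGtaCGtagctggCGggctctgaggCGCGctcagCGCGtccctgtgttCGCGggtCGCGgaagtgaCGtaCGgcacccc

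Libraries held 23796902 to 29136403 counts, so 3 counts equal 0.0676 to 0.155 CPM (counts per library scaled to one size). Levels are given in CPM on library sizes adjusted by trimmed mean of M values (TMM) factors, which ran from 0.706 to 1.87. A gene was called at a Benjamini-Hochberg adjusted p under 0.05 in edgeR's quasi-likelihood test, over all genes tested, with log2 fold changes of 0.5 or more in size. Wfdc3, a gene that DUX4 is known to induce in mouse cells, had 1 to 8 counts in every control and FLExD/+ library and 2005 to 4790 in every library of the models. All 12 libraries held Xist at 128 to 379 CPM, and the 4 Y-linked genes examined had at most 15.4 counts. Mature myofiber transcripts were present in all groups, with 10 such genes adding up to 224440 to 306690 CPM in control and 24825 to 38498 CPM in severe muscle.

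**Figure D1:**
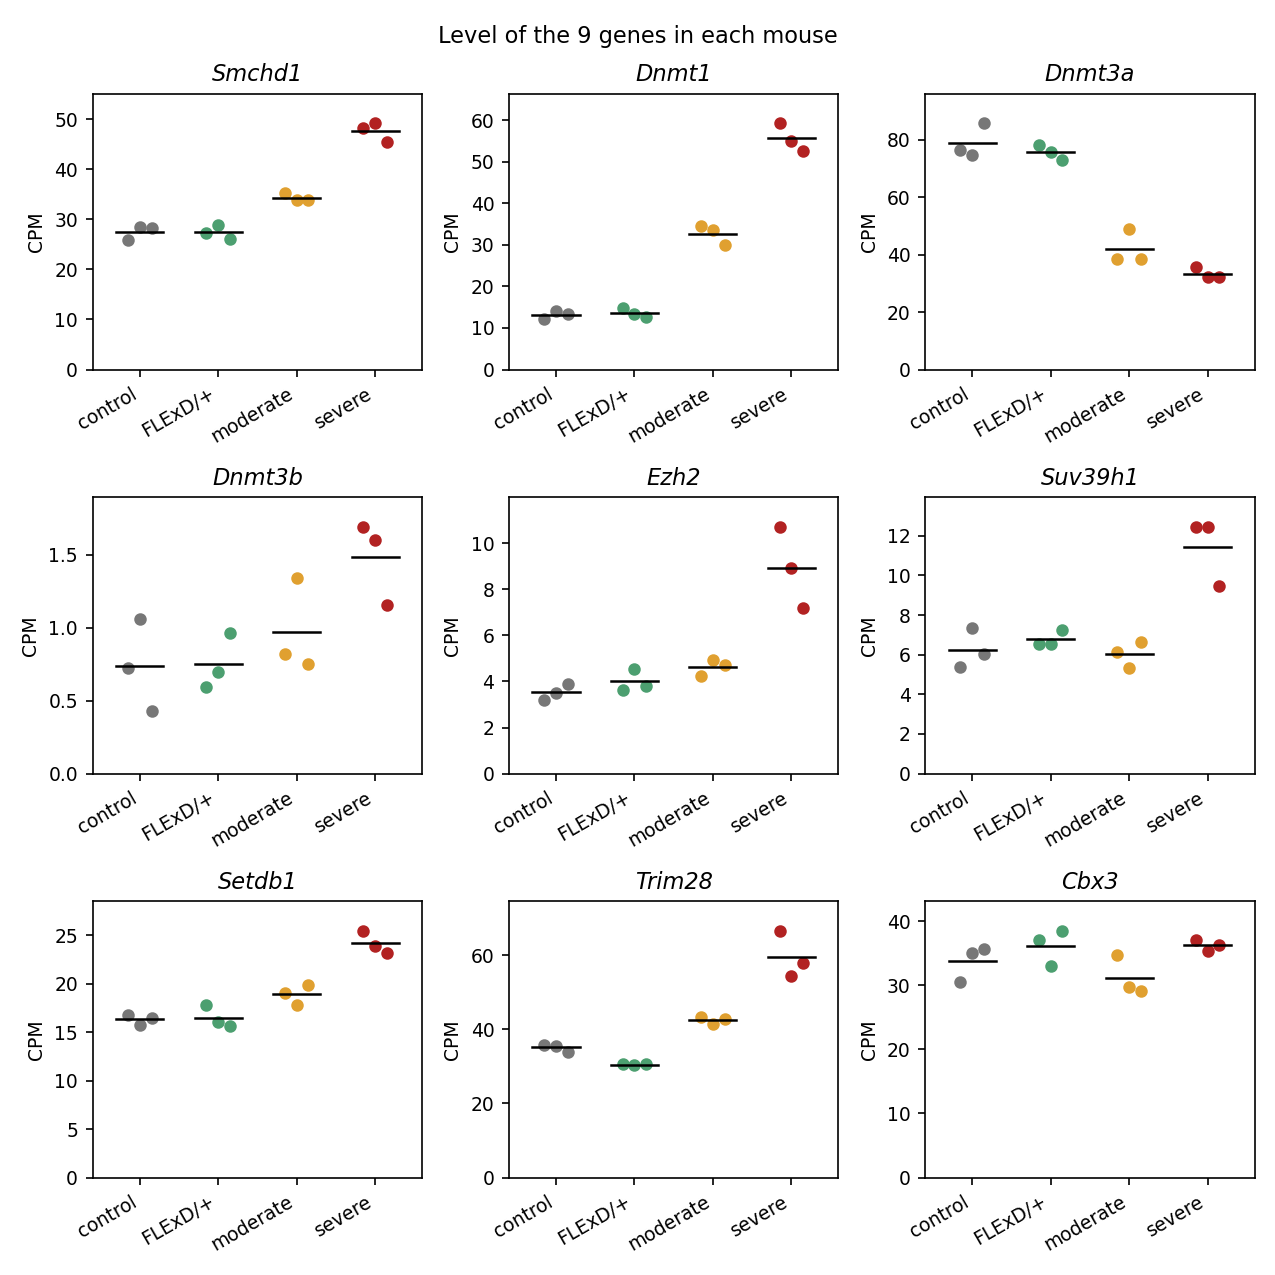
Level of each of the 9 genes in CPM (TMM-adjusted, linear axis from 0) by group, with 1 point per mouse and a bar at the mean of 3 mice. Smchd1, Dnmt1, Ezh2, Suv39h1, Setdb1 and Trim28 are highest in all 3 severe mice, Dnmt3a is lowest there on this scaling (with library size alone its difference from control is 0.07 on the log2 scale), and for Cbx3 the control mice overlap both models.

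Smchd1 transcripts were more abundant with increasing severity. Its level was 25.9, 28.4 and 28.2 CPM in the control mice, 27.3, 28.8 and 26.1 in FLExD/+, 35.1, 33.8 and 33.9 in the moderate model and 48.2, 49.2 and 45.4 in the severe model. Control and FLExD/+ mice overlapped, every moderate mouse was above both, and every severe mouse was above every moderate one. The severe model was 1.73-fold above control (log2 fold change 0.79, SE 0.07, adjusted p = 2.29e-07). The moderate model differed from control by 0.32 (SE 0.07, adjusted p = 0.00212), short of the fold needed for a call, and the severe from the moderate model by 0.47 (SE 0.07, adjusted p = 0.000104), also short of it.

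Dnmt1, which copies DNA methylation onto the new strand after replication, had the largest log2 fold change of the 9 genes in each model. It stood at 12.2, 14.1 and 13.3 CPM in control, 14.8, 13.4 and 12.7 in FLExD/+, 34.6, 33.6 and 29.96 in moderate and 59.3, 54.9 and 52.7 in severe muscle. Every moderate mouse was above all control and FLExD/+ mice and below all severe mice. Dnmt1 was 2.48-fold higher in the moderate model (log2 fold change 1.31, SE 0.09, adjusted p = 6.37e-08) and 4.21-fold higher in the severe model (2.07, SE 0.09, adjusted p = 2.43e-10), and the step from moderate to severe was 0.77 (SE 0.09, adjusted p = 1.1e-05).

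Dnmt3a, a de novo DNA methyltransferase, went the other way relative to the typical gene. Its values were 76.4, 74.6 and 85.8 CPM in control, 78.1, 75.9 and 73.0 in FLExD/+, 38.6, 48.8 and 38.6 in moderate and 35.8, 32.1 and 32.3 in severe muscle. All 6 mice of the models lay below all 6 others. Its log2 fold change from control was -0.91 (SE 0.10, adjusted p = 4e-06) for moderate and -1.24 (SE 0.10, adjusted p = 6.57e-08) for severe mice. With library size alone these values became -0.30 and 0.07. Between severe and moderate it differed by -0.33 (adjusted p = 0.0137), below the fold for a call.

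Dnmt3b, the second de novo enzyme and a known FSHD gene, was the scarcest of the 9, at 9.4 to 22 counts per control library and 48 to 75.4 per severe library. In CPM it was 0.725, 1.06 and 0.427 in control, 0.590, 0.694 and 0.964 in FLExD/+, 0.820, 1.34 and 0.751 in moderate and 1.69, 1.60 and 1.16 in severe muscle. The severe mice were above the control mice, but the lowest severe mouse was below the highest moderate one. Dnmt3b was called in the severe model (log2 fold change 1.01, SE 0.33, adjusted p = 0.0141), and without control mouse 1349 the call was lost (0.71, adjusted p = 0.0806). The mean length of the transcripts given its reads was also 0.77 (log2) longer in severe muscle, so the rise per length is smaller than that in counts. Moderate mice were 0.39 above control (SE 0.35, adjusted p = 0.373), and severe mice 0.62 above moderate ones (adjusted p = 0.106).

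Ezh2, the catalytic subunit of Polycomb repressive complex 2 (PRC2) that methylates H3 lysine 27, was raised in the severe model. It was at 3.21, 3.52 and 3.89 CPM in control, 3.64, 4.56 and 3.81 in FLExD/+, 4.23, 4.93 and 4.70 in moderate and 10.7, 8.94 and 7.17 in severe muscle. The moderate mice were above the control mice by a small margin and overlapped FLExD/+, and the severe mice stood clear of all others. The severe model was 2.52-fold above control (log2 fold change 1.34, SE 0.16, adjusted p = 3.66e-06) and 0.95 above the moderate model (SE 0.15, adjusted p = 0.000153). For Ezh2 too, the mean length of the transcripts given its reads was longer in severe muscle, by 0.63 (log2), so the rise per length is smaller. The moderate difference of 0.38 from control had an adjusted p of 0.068.

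Suv39h1, a methyltransferase that places H3 lysine 9 trimethylation at constitutive heterochromatin, was called in the severe model and not in the moderate one. The values were 5.39, 7.32 and 6.02 CPM in control, 6.54, 6.54 and 7.23 in FLExD/+, 6.15, 5.34 and 6.62 in moderate and 12.4, 12.4 and 9.49 in severe muscle. The first 3 groups overlapped and the severe mice were above them. Suv39h1 was 1.83-fold higher in severe muscle than in control (log2 fold change 0.87, SE 0.14, adjusted p = 7.26e-05) and 0.92 higher than in moderate muscle (SE 0.14, adjusted p = 1e-04). Its moderate difference from control was -0.05 (SE 0.15, adjusted p = 0.806), and 0.56 with library size alone.

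Setdb1 and Trim28 work together: TRIM28 (KAP1) is recruited by KRAB zinc finger proteins to transposable elements and brings in the H3 lysine 9 methyltransferase SETDB1. Setdb1 was at 16.8, 15.8 and 16.5 CPM in control, 17.9, 16.0 and 15.6 in FLExD/+, 19.0, 17.9 and 19.8 in moderate and 25.5, 23.9 and 23.2 in severe muscle. Trim28 was at 35.9, 35.7 and 34.0 CPM in control, 30.6, 30.3 and 30.6 in FLExD/+, 43.3, 41.6 and 42.7 in moderate and 66.6, 54.4 and 58.0 in severe muscle. For both genes every moderate mouse was above every control mouse and every severe mouse above every moderate one. Both were called in the severe model, Setdb1 with a log2 fold change of 0.57 (SE 0.08, adjusted p = 2.38e-05) and Trim28 with 0.76 (SE 0.08, adjusted p = 9.38e-07). In the moderate model they differed from control by 0.21 (adjusted p = 0.0463) and 0.27 (adjusted p = 0.0103), under the fold for a call. The severe and moderate models differed by 0.36 for Setdb1 (adjusted p = 0.00213) and 0.49 for Trim28 (adjusted p = 0.000184).

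Cbx3 encodes HP1 gamma, a reader of H3 lysine 9 methylation. Its values were 30.5, 35.1 and 35.7 CPM in control, 37.1, 33.1 and 38.5 in FLExD/+, 34.7, 29.7 and 29.1 in moderate and 37.0, 35.4 and 36.4 in severe muscle. Control and FLExD/+ mice overlapped each other and both models, while the 3 severe mice lay just above the 3 moderate ones. The severe model was 0.10 above control on the log2 scale (SE 0.09, adjusted p = 0.336) and the moderate model 0.12 below (log2 fold change -0.12, SE 0.09, adjusted p = 0.308). Severe mice were 0.22 above moderate ones (adjusted p = 0.0605). With library size alone the differences of Cbx3 from control became 0.49 for moderate and 1.41 for severe mice, and the severe one was called.

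Between FLExD/+ and control, 0 of the 9 genes were called by edgeR, and 0 also by DESeq2 and by limma on log2(TPM + 1), where TPM is a transcript level per length, scaled to the same total in each library. Of all genes tested, 0.00600% were called, in either direction. At an unadjusted p under 0.05 there was 1 gene of the 9, Trim28, lower by 0.21 on the log2 scale (log2 fold change -0.21, SE 0.08, adjusted p = 1). The 3 FLExD/+ mice lay between 30.3 and 30.6 CPM for Trim28 and the 3 control mice between 34.0 and 35.9. The other 8 genes differed by -0.06 to 0.18. Shares of all genes at an unadjusted p under 0.05 were not taken, here or below.

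In the moderate model 1 of the 9 genes was called higher (Dnmt1) and 1 lower (Dnmt3a), where 24.4% of all genes tested were called higher and 17.0% lower. The median log2 fold change of the 9 genes was 0.27, beside 0.04 over all genes tested. In the severe model 7 of the 9 were called higher, against 32.9% of all genes, and 1 lower (Dnmt3a), against 27.9%. Their median was 0.79, beside 0.08 for all genes. Between the severe and moderate models 3 were called higher (Dnmt1, Ezh2 and Suv39h1), against 17.6% of all genes, and 0 lower by edgeR and by DESeq2, against 18.8%. At an unadjusted p under 0.05, for which no share of all genes was taken, 7 were higher and 1 lower. Without severe mouse 1079 the count called higher was 5, since Smchd1 and Trim28, at 0.50 and 0.51, then passed the fold. The comparisons with control share the 3 control mice.

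The scale on which libraries are compared sets the direction of some of these differences. The myofiber genes summed above took a large share of control libraries and a smaller one of severe libraries. Without TMM factors the median of all genes was 0.65 for moderate and 1.39 for severe mice on the log2 scale. With library size alone, the split of calls among the 9 genes was 7 higher against 0 lower for moderate mice, 8 against 0 for severe mice, and 8 against 0 between the severe and moderate models. Shares of all genes called on that scale were not taken, so these splits have no background beside them and are not results about the 9 genes. These scalings shift all genes nearly alike, so values relative to the median gene are the same by construction and are given as a description. In the severe model Smchd1 was 0.71 above the median gene with TMM factors and 0.71 with library size alone, Dnmt1 1.992 and 1.996, Dnmt3a -1.32 and -1.32, and Cbx3 0.02 and 0.02. In rank among all genes tested, Dnmt1 was at percentile 88.4, Ezh2 at 80.7, Smchd1 at 71.1, Cbx3 at 50.7 and Dnmt3a at 13.8 of the severe log2 fold changes. The direction for Dnmt3a against control thus depends on the scale. On log2(TPM + 1) with limma, which is not such a shift, Dnmt3a stood at -0.70 relative to the median gene, Dnmt1 at 1.99 and Dnmt3b at -0.21. Dnmt3b averaged 0.417 TPM in control and 1.13 in severe muscle, and for a gene this scarce the added 1 shrinks the change. On counts with TMM factors it was 0.93 above the median gene.

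**Figure D2:**
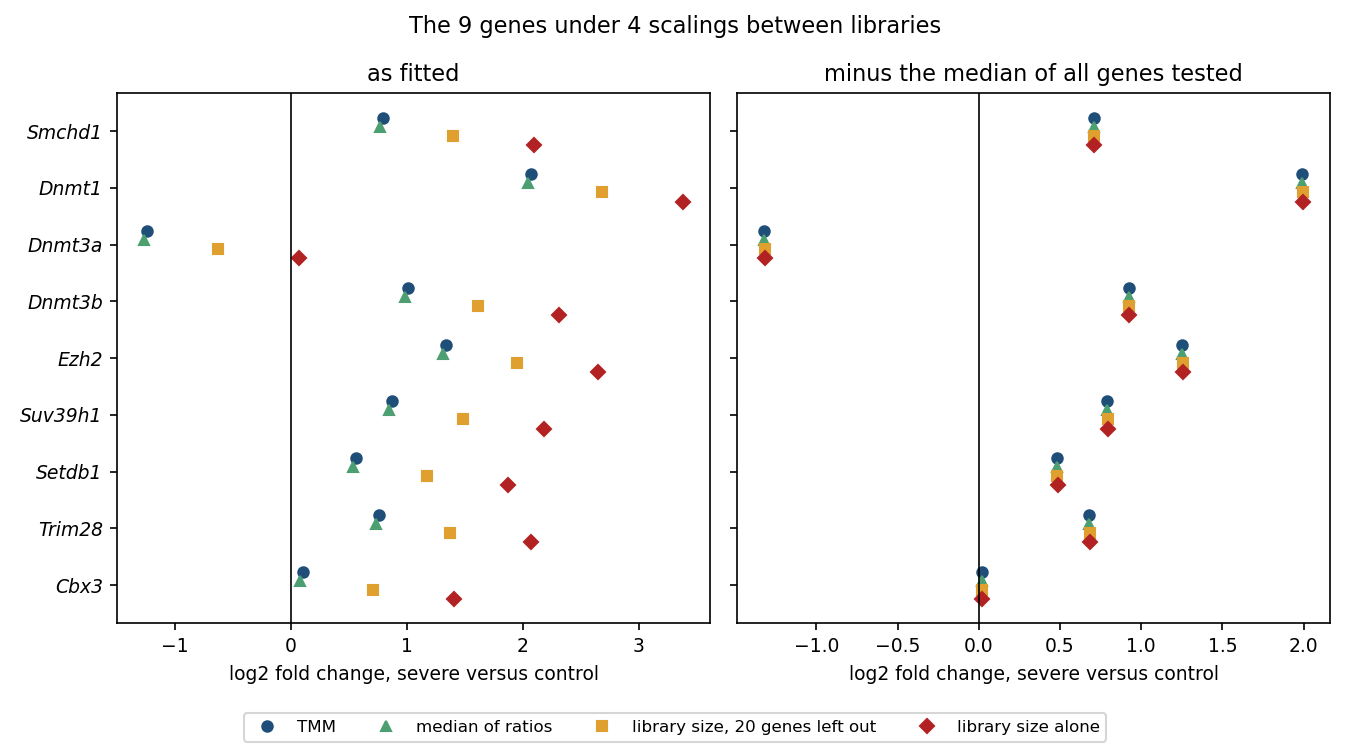
Log2 fold change of the 9 genes, severe versus control, under 4 scalings between libraries (symbols), as fitted on the left and after subtracting the median of all genes tested on the right. On the left Dnmt3a runs from -1.24 with TMM factors to 0.07 with library size alone, and on the right the 4 symbols of each gene nearly coincide, as a common shift has been subtracted, with Dnmt3a at -1.32.

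The 9 genes can be compared with each other only per transcript length, as TPM. In control muscle Cbx3 (mean 19.6 TPM), Dnmt3a (15.4) and Trim28 (10.6) stood above the rest, Smchd1 (3.55) and Setdb1 (3.49) came next, and Suv39h1 (2.56), Ezh2 (2.45) and Dnmt1 (2.38) did not differ beyond the spread of the 3 mice. Dnmt3b was lowest at 0.417 TPM. In severe muscle the order by mean was Cbx3 (45.9 TPM), Trim28 (41.9), Dnmt1 (22.2), Dnmt3a (16.5), Smchd1 (14.3), Setdb1 (12.1), Suv39h1 (9.66), Ezh2 (8.83) and Dnmt3b (1.13). Cbx3 and Trim28 overlapped there, and so did each pair of neighbours from Dnmt3a to Ezh2, whereas the severe mice did not overlap between Trim28 and Dnmt1, Dnmt1 and Dnmt3a, or Ezh2 and Dnmt3b. Dnmt1 was at rank 8 of the 9 in control and at rank 3 in severe muscle.

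Ratios of 2 genes inside a library do not depend on the scaling between libraries. The log2 ratio of Dnmt1 to Dnmt3a counts was -2.64, -2.41 and -2.69 in control, -2.40, -2.50 and -2.52 in FLExD/+, -0.16, -0.54 and -0.37 in moderate and 0.73, 0.77 and 0.70 in severe libraries. The models did not overlap with each other, with control or with FLExD/+. Against control the ratio was 4.67-fold higher in moderate and 9.94-fold higher in severe mice, each with a two-sided exact permutation p = 0.1, the smallest that 3 mice against 3 can give (0.156 after adjustment over 14 ratio tests). Per length, in TPM, the mean log2 ratio passed from -2.69 in control to 0.43 in severe muscle.

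Ezh2 and Ezh1 are alternative catalytic subunits of PRC2, with EZH2 known from dividing cells and EZH1 from resting ones. The log2 ratio of Ezh2 to Ezh1 counts was -3.59, -3.54 and -3.24 in control, -3.26, -3.06 and -3.45 in FLExD/+, -2.40, -2.31 and -2.41 in moderate and -0.78, -1.06 and -1.49 in severe libraries. It was 2.12-fold higher in the moderate and 5.08-fold higher in the severe model, without overlap (exact permutation p = 0.1 for each). In TPM the Ezh2 to Ezh1 folds were 1.53 and 2.998, also without overlap. Ezh1 itself was lower relative to the typical gene (log2 fold change -0.70, SE 0.09, adjusted p = 1.04e-05 in moderate and -1.02, SE 0.09, adjusted p = 8.65e-08 in severe), and 0.28 higher in severe muscle with library size alone.

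The ratio of Smchd1 to Lrif1, which encodes a partner of SMCHD1 and HP1, was apart in the severe libraries. On the log2 scale it averaged 1.42 in control, 1.48 in FLExD/+ and 1.47 in moderate libraries, which overlapped, and 2.30 in severe ones, 1.84-fold above control without overlap (exact permutation p = 0.1). Lrif1 differed from control by 0.27 in the moderate model (adjusted p = 0.0567) and -0.09 in the severe model (adjusted p = 0.501). Cbx3 to Cbx5 (HP1 alpha) was 1.33-fold lower in the severe model (log2 means -1.27 and -1.68, exact permutation p = 0.1) and Setdb1 to Trim28 1.14-fold lower (log2 means -1.11 and -1.30, exact permutation p = 0.1). Suv39h1 to Suv39h2 overlapped between control and both models (exact permutation p = 0.2 in moderate and 0.8 in severe). Dnmt3b to Dnmt3a was 2.54-fold higher in the moderate and 4.99-fold higher in the severe model, again without overlap (exact permutation p = 0.1 for each), on the few counts of Dnmt3b. In TPM these folds were 1.78 and 2.51.

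**Figure D3:**
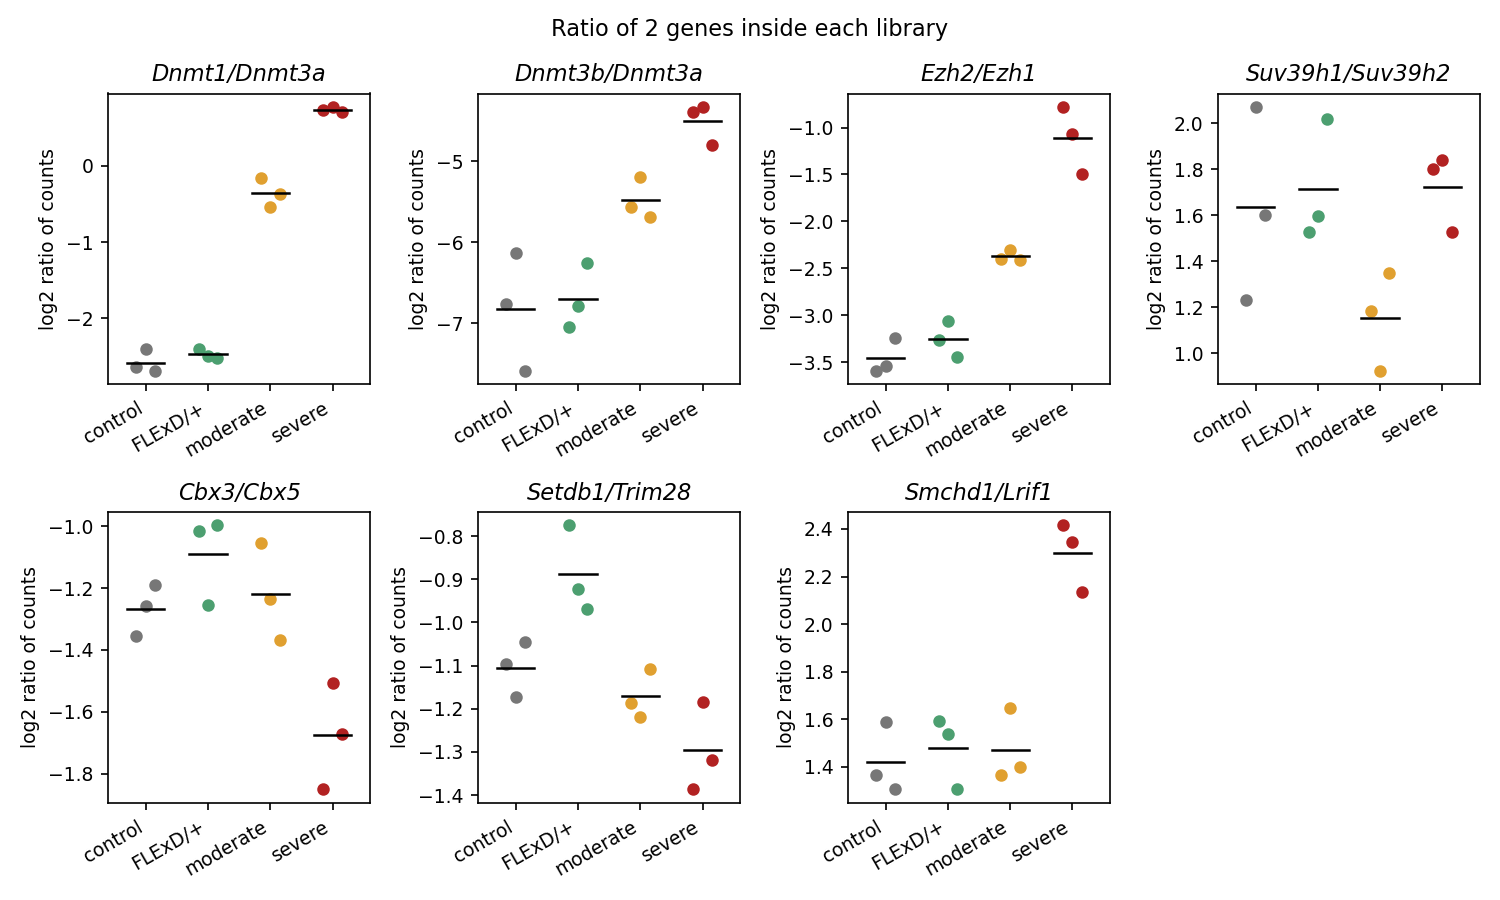
Log2 ratio of the counts of 2 genes inside each library, by group, with 1 point per mouse and a bar at the mean of 3 mice (axes differ between panels and do not start at 0). Dnmt1 to Dnmt3a steps from -2.58 in control to -0.35 in moderate and 0.74 in severe libraries on average, and Smchd1 to Lrif1 is apart in the severe libraries.

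For Ezh2 the relation of counts to TPM also shifted, a relation set by the mean length of the transcripts to which the authors' estimate assigned the reads. Relative to the median gene of a library, Ezh2's length was 0.609 in control, 0.611 in FLExD/+, 0.827 in moderate and 0.945 in severe muscle. The ranges of control (0.536 to 0.655) and severe (0.942 to 0.949) did not overlap. The severe minus control difference of 0.63 (log2) was at percentile 99.7 of 9992 genes with at least 50 counts in every library, whose median was -0.04. Transcript-level estimates were not analysed here. Dnmt3b, with under 50 counts in some libraries, went from 0.716 in control to 1.22 in severe muscle, a difference of 0.77 (log2). Counts grow with transcript length, so the count-based rises of Ezh2 and Dnmt3b in severe muscle are larger than their rises per length, relative to the typical gene. Dnmt1 was at 2.33 in both control and severe muscle.

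The fixed lists of chromatin genes (chosen, like the 9 genes, with earlier results of these data known) give the surroundings of these changes. Among 17 other genes of DNA methylation, the calls against control numbered 4 higher and 3 lower for moderate mice, and 5 higher and 4 lower for severe mice (4 and 4 by DESeq2). These shares are near or under those of all genes tested, 24.4% higher and 17.0% lower for moderate and 32.9% and 27.9% for severe mice. Uhrf1, which brings DNMT1 to hemimethylated DNA, rose from a mean of 0.291 CPM in control to 9.03 in moderate (log2 fold change 4.92, SE 0.30, adjusted p = 2.05e-08) and 24.2 in severe muscle (6.34, SE 0.28, adjusted p = 2.68e-10). The remodeler Hells was 2.82 and 4.24 above control, and its partner Cdca7 2.62 and 3.98, on the log2 scale in the moderate and severe models. Lower relative to the typical gene were Zbtb38, a reader of methylated DNA (-1.06 and -1.59), Tet1, which oxidizes methylated cytosine (-1.10 and -1.51), and in severe muscle Zbtb4 (-0.83). Dnmt3l, a cofactor of the de novo enzymes, did not pass the filter and averaged 0, 0.123 and 0.0392 CPM in control, moderate and severe muscle.

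Of 10 other PRC2 genes, 1 was called higher in each model, 1 lower in moderate and 2 lower in severe mice, against 24.4% and 32.9% of all genes called higher and 17.0% and 27.9% lower. The core subunits Eed and Suz12 were not called against control (Eed 0.31 and 0.06, Suz12 -0.11 and 0.39 in the moderate and severe models), while Ezh1 and, in severe muscle, Jarid2 (-0.54, adjusted p = 0.00122) were lower. Phf19, an accessory subunit named after its values were seen, was the gene called higher, 2.66 and 3.50 above control. Its mean was 0.244 CPM in control, where the lowest mouse was under the 3-count floor, and 0.670 CPM in FLExD/+. Among 18 genes of Polycomb repressive complex 1, which binds the H3 lysine 27 mark, 5 were higher in the severe model, with Phc2 (1.28) and Rybp (0.57) as examples, and 4 were lower, among them Cbx7 (-1.11), Bmi1 (-0.89) and Pcgf5 (-0.75). Among all genes 32.9% were called higher and 27.9% lower there, so neither count is above the background, and DESeq2 called 4 higher and 4 lower. For moderate mice the 2 genes called were Phc2 (0.89) and Cbx7 (-0.72), where 24.4% of all genes were called higher and 17.0% lower.

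Of 10 other H3 lysine 9 and HP1 genes, 3 were higher in the severe model, near the 32.9% of all genes, and 0 lower, against 27.9%. In this list 0 were called in the moderate model by edgeR and by DESeq2 (1 higher and 1 lower at an unadjusted p under 0.05, and 1 higher by limma on log2(TPM + 1)). Of all genes, 24.4% were called higher and 17.0% lower there. For the severe model the count lower was also 0 by DESeq2 and limma, with 1 at an unadjusted p under 0.05. The 3 genes were Kmt5c (0.88), Suv39h2 (0.78, adjusted p = 0.000497) and Cbx5 (0.52, adjusted p = 0.000205). The Cbx5 call was lost with median-of-ratios factors (0.50, just under the threshold), without control mouse 1127 (0.48) or without severe mouse 1047 (0.42). Cbx1 (HP1 beta) differed by -0.15 and -0.27 in the moderate and severe models and was not called. Of 8 genes of the HUSH complex and of KRAB-linked repression, 3 were called higher in severe mice by edgeR and 2 by DESeq2, with 32.9% of all genes as background. Morc3 (0.87) and Pphln1 (0.50, at the threshold) were higher in the severe model, Zfp57 was called higher in both (1.27 and 2.90) from a mean of 0.211 CPM in control, and Trim24, a relative of Trim28, was lower in both models (-0.51 and -0.87).

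Of 7 other genes of the SMC family and its partners, 3 were higher in each model, against 24.4% of all genes for moderate and 32.9% for severe mice. They were Smc2 and Smc4 of condensin (2.22 and 3.70 for Smc2, 0.92 and 2.23 for Smc4) and Smc1a of cohesin (0.73 and 0.90). Counts lower were 0 in both models by edgeR, DESeq2 and limma, and an unadjusted p under 0.05 was reached by 1 gene for moderate and 0 for severe mice. Of all genes, 17.0% were called lower for moderate and 27.9% for severe mice. Smchd1 itself stood at 0.32 and 0.79. Among 10 genes of the NuRD deacetylase complex and the chromatin assembly factor CAF-1, Chaf1b (2.86 and 4.29), Chaf1a (1.07 and 2.02) and Hdac1 (0.57 and 1.505) were higher in both models, and the counts higher were 3 and 4 against the same background. Chd4 was called higher in the severe model (0.81) and Gatad2b lower in the moderate one (-0.57). In the severe model 0 of them were lower by edgeR, DESeq2 and limma, against 27.9% of all genes, with 1 at an unadjusted p under 0.05. Of 9 histone demethylase genes, 0 were higher in either model by edgeR and by DESeq2 (1 and 3 at an unadjusted p under 0.05 in the moderate and severe models, 1 and 9 by limma on log2(TPM + 1)), where 24.4% and 32.9% of all genes were. Kdm4b, which removes H3 lysine 9 methylation, was the 1 called lower by edgeR in the severe model (-0.60, adjusted p = 6.8e-05), where DESeq2 called 2 genes lower. Kdm3b was the 1 called lower in the moderate model (-0.51, adjusted p = 0.000296). Of all genes, 27.9% were called lower for severe and 17.0% for moderate mice. With library size alone, 0 genes of any of these 8 lists were called lower in either model. The share of all genes called lower on that scale was not taken.

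**Figure D4:**
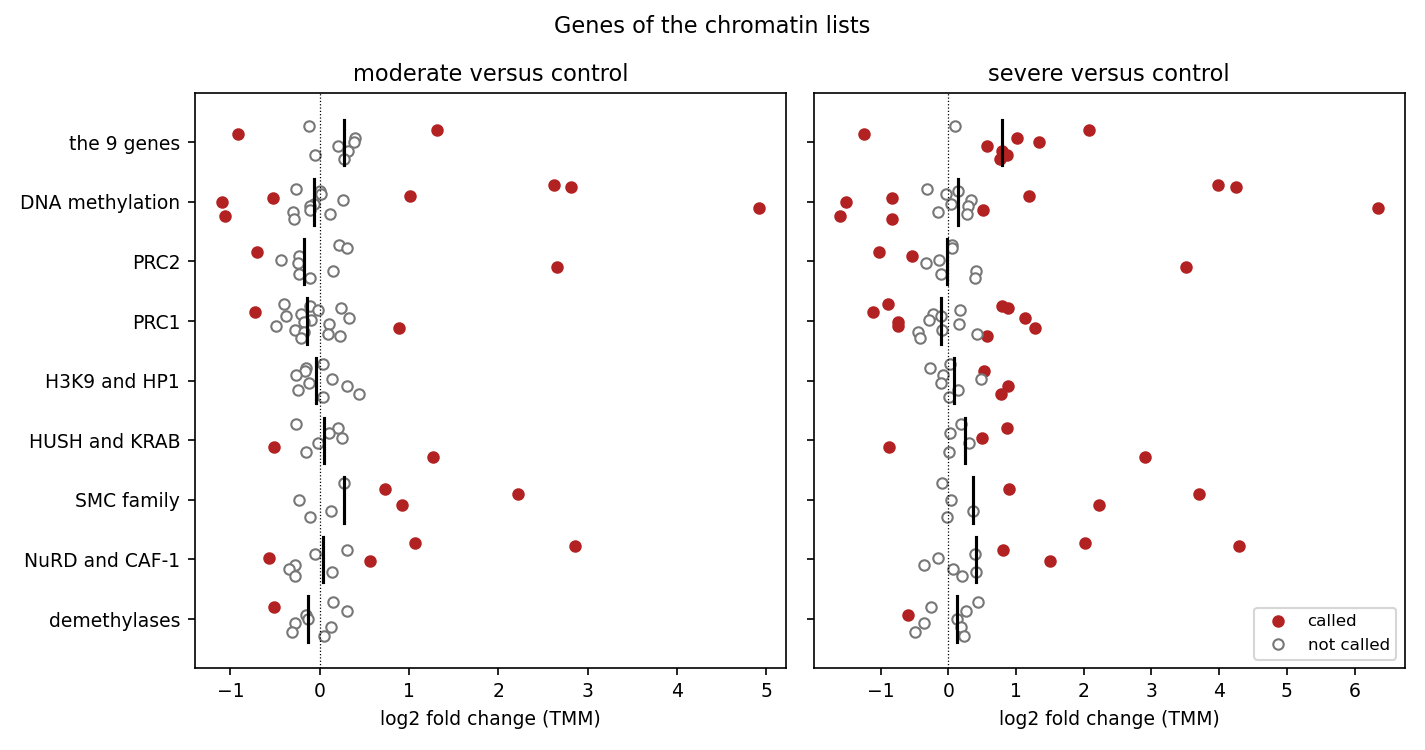
Log2 fold change (TMM) of each tested gene of the 9 and of 8 chromatin lists, moderate versus control on the left and severe versus control on the right, with called genes filled, others open and a black bar at each list's median. The median of the 9 genes is 0.27 and 0.79, and the medians of the other lists lie between -0.17 and 0.27 in the moderate and between -0.10 and 0.40 in the severe model. Genes drawn left of 0 are lower relative to the typical gene, and 0 of the genes in the 8 lists were called lower with library size alone (share of all genes not taken).

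Marker genes of dividing cells and of other cell types moved with the same groups. In these whole-muscle libraries a change in the number of cells of a type and a change of RNA per cell cannot be told apart. The summed level of 12 cell cycle markers was 34.4 to 36.9 CPM in control, 38.3 to 40.01 in FLExD/+, 146 to 173 in moderate and 392 to 493 in severe libraries, with 11 of 12 called higher for moderate and 12 of 12 for severe mice. Of all genes tested, 24.4% were called higher for moderate and 32.9% for severe mice, the background for each marker count here. Mean levels of Cdk1 and Ccnb1 were 15.6 and 17.8 CPM in severe muscle, and in control libraries both were under the 3-count floor (0.0319 and 0.0477 CPM). All 8 macrophage and leukocyte markers were higher in both models, and their sum rose from 89.6 to 116 CPM in control to 444 to 556 in moderate and 985 to 1074 in severe libraries, with Cd68 (5.31) and Itgam (4.15) as examples in severe muscle. Satellite cell markers summed to 18.3 to 22.2 CPM in control and 65.9 to 74.8 in severe libraries, with 4 of 5 called higher, Pax7 by 2.71. Lymphocyte markers summed to at most 1.01 CPM in control and 2.55 to 4.25 in severe libraries, and 5 of the 7 did not pass the filter. Of the 2 tested, Cd4 was called higher in severe mice, at a mean of 2.68 CPM against 0.166 in control (adjusted p = 4.01e-06). Sums of 5 fibro-adipogenic markers were 626 to 1533 CPM in control and 3807 to 4924 in severe libraries, where 2 were called higher (Pdgfra and Col3a1) and Dcn lower. These edgeR counts are near the shares of all genes, 32.9% higher and 27.9% lower. Endothelial markers (165 to 196 CPM in control, 67.8 to 81.8 in severe) and mature myofiber genes were lower, in sum, on the TMM scale. The part of these cell types in the levels of the 9 genes was not tested.

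Across the 12 libraries, the genes whose log2 CPM ran most like each of the 9 were named as a description, since the libraries fall into groups that all genes share. For Dnmt1 they were Cfl1, the histone H1 gene Hist1h1b and Tubb5 (Pearson r = 0.997 for each). For Smchd1 they were C330027C09Rik (0.995), H3f3b (0.994) and Hnrnpf (0.994), and for Dnmt3a they were Pde4a (0.995), Pcca (0.994) and Ccdc101 (0.992). Cbx3 ran most like Rpl37 (0.903), at a lower r than the other 8 genes had with their own closest genes (0.936 or more).

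Early embryo and germline genes, which such repressors are known to silence in adult tissue, were read as well. Of the 14 genes of the mouse early embryo list (genes of the totipotent stage), 12 were in the table, and none had more than 2 counts in any library. That is under the 3 counts taken as the floor, so these embryo genes were not detectable at this depth. Of 16 germline genes, 3 passed the filter. Brdt, a reader of acetylated histones in the testis, averaged 1.32 CPM in control and 1.33 in severe muscle and was not called. Mov10l1, which acts in the piRNA pathway, was called higher in both models (adjusted p = 0.017 and 0.00324). Its means were 0.0640, 0.361 and 0.472 CPM in control, moderate and severe muscle, and the control mean was under the floor. Limma on log2(TPM + 1) called 0 of the 3 tested germline genes in either model. Dazl was called lower in the severe model (adjusted p = 0.000944), with means of 0.533 CPM in control and 0.0542 in severe muscle, where its mean was under the floor. Xist, the RNA of the inactive X on which SMCHD1 acts, averaged 152 CPM in control, 208 in moderate and 298 in severe muscle (log2 fold change 0.97, SE 0.16, adjusted p = 6e-05 for severe versus control).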

How the data were processed

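The data were single-read, poly(A)-selected RNA-seq of gastrocnemius from 12 mice, with 3 mice in each of 4 groups. Groups were taken from the strain and treatment labels. The authors trimmed the reads, mapped them with RSEM 1.2.4, modified to call Bowtie, to a merged mouse annotation on mm10, and mapped what remained with TopHat2 2.0.8b. The authors deposited RSEM expected counts without normalization. They also deposited TPM values, which are per transcript length and sum to the same total in each library.

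Expected counts were rounded. Low genes were removed with filterByExpr of edgeR 4.0.16 (R 4.3.3), and library sizes were scaled by TMM. All 4 groups entered 1 robust quasi-likelihood model, and p-values of each comparison were adjusted over 16679 genes by Benjamini-Hochberg. Standard errors were derived from the F statistic. Mice are separate animals. Ratios inside a library were tested with two-sided exact permutation tests. TPM was used for levels between genes and, as log2(TPM + 1), with limma 3.58.1. The test was tried first on simulated data, in which equal numbers of genes were changed up and down. Those data did not hold the change in myofiber share seen in the models, so they are no check on the scaling. Gene positions came from GENCODE M21, promoters from RefSeq, and figures from matplotlib 3.10.9 in Python 3.11.15.

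The 9 genes and all lists were chosen with earlier results of these data known. Beside the 9 genes, the text names up to 3 called genes per list and direction with the largest change in the severe model and a mean of at least 50 counts, close relatives of the 9, and the 3 genes with the most similar pattern. Phf19, Mov10l1, Dazl, Brdt, Zfp57, Eed, Suz12, Chd4, Gatad2b, Kdm3b and the marker genes were named outside that rule. Alternatives were DESeq2 1.42.0, its median-of-ratios factors in edgeR, library size alone, limma on TPM, other filters on low counts, the 2 groups alone, other fold thresholds and each mouse left out in turn. Library size without 20 abundant genes was added after the data were seen. Libraries of the bi-transgenic mice without TMX were not analysed here. The result of 1 list gene that the rule names is not reported here.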

Additional observations from a re-analysis of the deposited data

How the results depend on the processing

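No paired analysis was possible because no mouse number is shared between groups. Median-of-ratios factors, DESeq2 and the 2 groups alone kept every count of calls among the 9 genes within 1.5 times. Shares of all genes called were taken under the main setting alone (edgeR with TMM factors). The counts given here for other settings therefore have no background beside them and describe the settings, not the 9 genes. Of the 9 genes, the number called higher in the moderate model was 7 with library size alone, 4 with limma on log2(TPM + 1), 5 with library size without the 20 most abundant genes (a setting chosen after seeing the data) and 4 with no fold threshold. The number called lower was 0 with library size alone, limma or a log2 fold of at least 1. In the severe model 3 were higher at a log2 fold of at least 1, and 0 lower with library size alone or limma. Between severe and moderate, the number higher was 8 with library size alone, limma or the 20 genes left out, 5 with no filter or at least 10 counts in every library, 6 with no fold threshold and 0 at a log2 fold of at least 1, and 1 was lower with no fold threshold. Dnmt3b gave no value under the filter of 10 counts. Several log2 fold changes reversed. With library size alone these were FLExD/+ Smchd1 (0.0111), moderate Suv39h1 (0.56), Cbx3 (0.49), Cbx1 (0.45) and Cbx5 (0.44), severe Dnmt3a (0.0679), Ezh1 (0.28), Cbx1 (1.04) and Lrif1 (1.21), and severe versus moderate Dnmt3a (0.37). With limma they were FLExD/+ Dnmt1 (-0.0034), moderate Suv39h1 (0.24), Cbx3 (0.28), Cbx1 (0.29) and Cbx5 (0.34), severe Dnmt3a (0.0921), Ezh1 (0.22), Cbx1 (0.84) and Lrif1 (0.78), and severe versus moderate Dnmt3a (0.50). With the 20 genes left out they were FLExD/+ Smchd1 (0.0033), moderate Suv39h1 (0.26), Cbx3 (0.19), Cbx1 (0.16) and Cbx5 (0.14), and severe Cbx1 (0.34) and Lrif1 (0.52). With no filter and with at least 10 counts they were moderate Suv39h1 (0.0092 and 0.0057) and severe Lrif1 (0.0115 and 0.0245). In TPM the moderate difference of the Cbx3 to Cbx5 ratio was -0.072 instead of 0.05. These scalings differ in the median of all genes, and the cause of each reversal was not tested further. With each mouse left out, the number higher between severe and moderate ran from 3 to 5. FLExD/+ log2 fold changes ran from -0.0486 to 0.021 for Smchd1, -0.0165 to 0.0929 for Dnmt1, -0.26 to 0.39 for Dnmt3b and -0.051 to 0.0427 for Setdb1, and moderate Suv39h1 from -0.17 to 0.0515. Ratio differences ran from -0.11 to 0.31 for severe Suv39h1 to Suv39h2, -0.0346 to 0.12 for moderate Cbx3 to Cbx5 and -0.0401 to 0.13 for moderate Smchd1 to Lrif1. The few counts of Dnmt3b limit its precision.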
